A study of Mus musculus with 20 samples.

Results

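Small leucine-rich proteoglycans and dermatopontin are secreted proteins that sit on collagen fibrils, and their transcripts were followed in hearts of 20 male mice. The set was chosen by gene symbol and holds 7 genes, namely lumican (Lum), decorin (Dcn), biglycan (Bgn), fibromodulin (Fmod), prolargin (Prelp), osteoglycin (Ogn) and dermatopontin (Dpt). All probe sets whose only symbol in the platform annotation is one of these names were taken. They belong to 6 genes of the 8251 on the array, with 9 probe sets in all. Lum (93353_at), Dcn (93534_at) and Dpt (96742_at) have 1 each. Ogn (99549_at and 160877_at), Bgn (96049_at and 162347_f_at) and Fmod (99152_at and 161373_r_at) have 2, here called the brighter and the dimmer by their mean signal, in that order. Prelp was paired with no probe set in this way and is not analysed here. Of the 9 probe sets, 7 passed a filter on low signal, so 5 genes were tested. Both Fmod probe sets lay below the filter and are described from a fit without it.

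Small leucine-rich proteoglycans carry a protein core of repeated leucine-rich motifs, to which chondroitin, dermatan or keratan sulfate chains can be attached. Decorin and biglycan form a class that carries chondroitin or dermatan sulfate, while lumican, fibromodulin and prolargin form a class that can carry keratan sulfate, and osteoglycin belongs to another class. Several of them bind fibrillar collagen and limit how far fibrils grow in width, and decorin and biglycan also bind TGF-beta. Dermatopontin is not a leucine-rich protein, but it binds decorin and collagen and takes part in matrix assembly. In the heart these proteins are made mainly by fibroblasts and other cells of the connective tissue.

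The hearts formed 4 groups of 5 animals, and each heart was hybridised to an array of its own. The first group was 30 months of age and had eaten alpha- and gamma-tocopherol, forms of vitamin E, at 500 mg/kg each since 15 months of age. The second was of the same age, with 1000 mg/kg alpha-tocopherol since 15 months. Old controls, also 30 months of age, and young controls, 5 months of age, ate the control diet. All mice were housed singly and were hybrids of the B6 and C3H strains, labelled F1 except for old controls 1 and 4, whose label lacks that mark. The 2 supplemented groups differ both in the alpha-tocopherol dose and in the presence of gamma-tocopherol, so the effects of these cannot be told apart. The RNA is of whole hearts, where fewer cells of a type and less RNA per cell cannot be told apart. Heart muscle transcripts were bright on every array (Myh6, the cardiac myosin heavy chain, read 64545 to 111896), as the tissue label says.

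Array-wide measures moved with one of the groups. The bacterial hybridisation controls added to every sample averaged 13.59 on the log2 scale with alpha-tocopherol alone, against 12.74 in old controls, and 18S ribosomal RNA averaged 12.39 against 10.74. In neither measure did the 5 arrays of one group overlap the 5 of the other (two-sided exact permutation test, p = 0.0079, below which 5 against 5 arrays cannot go, and 0.032 after Benjamini-Hochberg adjustment over 16 tests). With alpha- and gamma-tocopherol the same measures differed from old controls by 0.28 and 0.52 (exact p = 0.16 and 0.26). Differences of the members were therefore also computed with each of these levels as a covariate. The 16 tests also cover the 3' minus 5' signal of actin and Gapdh. For Gapdh old control 3 read 1.21 (log2), and the other old controls read -0.15 to -0.11.

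Values are the deposited linear intensities, and differences are on the scale of log2(intensity + 58). The level of 1 probe set cannot be set against that of another, since each binds its target with its own strength. Within each probe set the position among all 12422 probe sets gives a rough scale. By mean signal Dcn was at percentile 99.4, the brighter Bgn probe set at 96.7, Lum at 91.2, the brighter Ogn probe set at 82.3, Dpt at 73.0, and the Fmod probe sets at 31.8 and 27.8. The plot of member signals by heart shows every value.

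**Figure D1:**
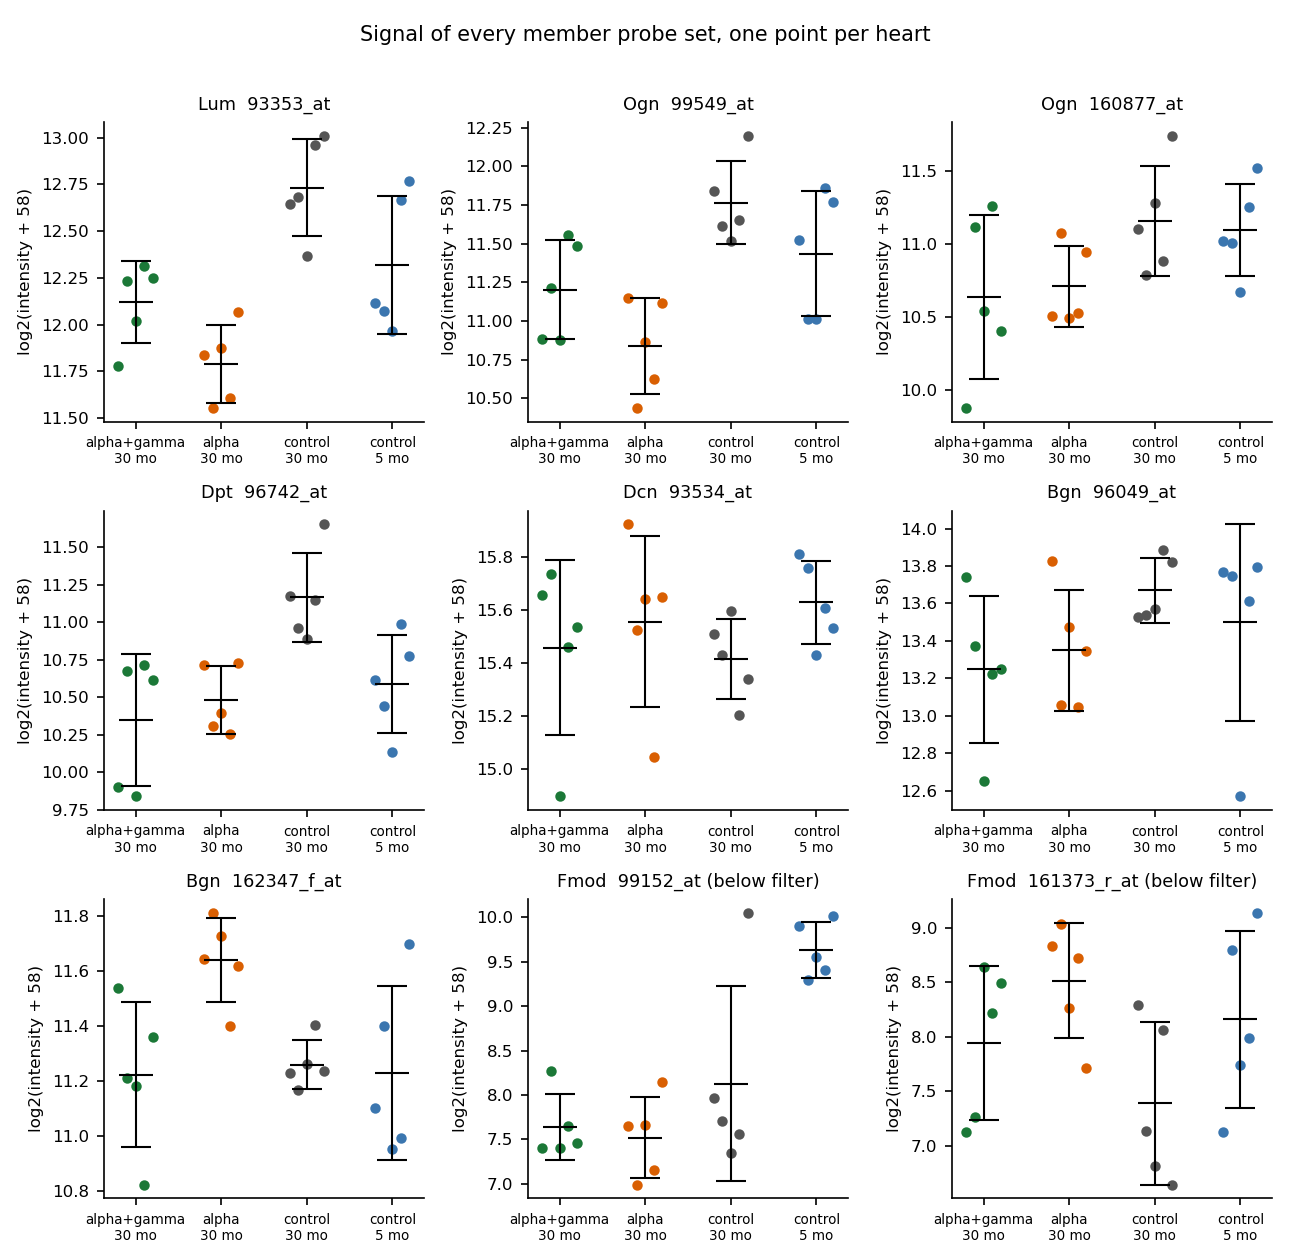
Signal of all 9 member probe sets in the 20 hearts, on the scale of log2(intensity + 58). Each point is 1 heart, the long bar is the group mean and the caps are 1 SD (n = 5 per group); axes start at different values. Lum, the brighter Ogn probe set and Dpt sit lower in the alpha-tocopherol hearts than in all 5 old control hearts, and Dcn overlaps in every group.

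In old hearts given alpha-tocopherol alone, 3 of the 5 tested genes were lower than in old controls, namely Lum, Ogn and Dpt. Their mean levels were 0.52, 0.53 and 0.62 times those of old controls, as linear ratios turned back from the differences of log2(intensity + 58). Over all tested probe sets 21.7% were called in this comparison and 12.8% were called lower. Dcn, and Bgn at its brighter probe set, did not pass the test. The median difference of the 5 genes was -0.69, against -0.04 over all tested genes.

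Lumican, a keratan sulfate proteoglycan that regulates collagen fibril width, read 3597, 2948, 3697, 3066 and 4234 in the 5 alpha-tocopherol hearts. It read 6359, 6523, 5214, 7913 and 8188 in the 5 old controls. Every alpha-tocopherol heart lay below every old control. Lum was lower by 0.95 ± 0.16 (log2 difference -0.95 ± 0.16 SE, limma adjusted p = 0.00031 after Benjamini-Hochberg over 7453 probe sets).

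Osteoglycin, also called mimecan, was measured by 2 probe sets. At the brighter probe set it read 2212, 1329, 1809, 1522 and 2160 in alpha-tocopherol hearts, against 3616, 3082, 2867, 3156 and 4635 in old controls. The groups did not overlap, with a log2 difference of -0.93 ± 0.19 (limma adjusted p = 0.0016). At the dimmer probe set it read 1396, 2102, 1380, 1418 and 1910 in alpha-tocopherol hearts, against 2141, 1705, 2425, 1827 and 3359 in old controls. There the groups overlapped, and the difference of -0.45 ± 0.23 pointed the same way without passing the test (limma adjusted p = 0.16). Over the 20 arrays the 2 Ogn probe sets had a Pearson r of 0.62.

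Dermatopontin, the collagen- and decorin-binding protein, read 1625, 1210, 1286, 1164 and 1636 in alpha-tocopherol hearts. In old controls it read 2253, 1934, 1838, 2216 and 3162. All 5 alpha-tocopherol hearts lay below the lowest old control, and the log2 difference was -0.69 ± 0.20 (limma adjusted p = 0.016). Of all tested probe sets, 9.39% had 5 alpha-tocopherol hearts below 5 old controls, as these 3 genes did. Old control 5 was the highest old control for Lum, for Dpt and for both Ogn probe sets, and without it the Dpt difference was -0.56 ± 0.20 (limma adjusted p = 0.056).

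Decorin, the core protein that binds collagen and TGF-beta, showed no such pattern. It read 62089, 47058, 51081, 33777 and 51295 in alpha-tocopherol hearts, against 46592, 44144, 49445, 37740 and 41437 in old controls. The groups overlapped, with a difference of 0.14 ± 0.15 (limma adjusted p = 0.52, 95% interval -0.17 to 0.45).

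Biglycan gave 2 readings that did not point the same way. The brighter probe set read 14469, 8475, 11316, 8408 and 10343 in alpha-tocopherol hearts, against 11764, 11830, 12114, 15093 and 14442 in old controls. Of the alpha-tocopherol hearts 4 lay below the lowest old control and 1 did not, with a difference of -0.32 ± 0.21 (limma adjusted p = 0.29). The dimmer probe set read 3138, 3535, 3333, 2646 and 3082 in alpha-tocopherol hearts, against 2346, 2244, 2398, 2652 and 2353 in old controls. Here 4 alpha-tocopherol hearts lay above the highest old control, and the difference was 0.38 ± 0.14 (limma adjusted p = 0.056). The letter f in its name marks probes that can match a family of related sequences. Over the 20 arrays the 2 Bgn probe sets had a Pearson r of 0.25, so no direction is given for Bgn.

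None of the 3 calls was kept with a covariate. With the hybridisation control level as a covariate, Lum was -1.04 ± 0.29, Ogn -1.05 ± 0.34 and Dpt -0.85 ± 0.35 (limma adjusted p = 0.060, 0.099 and 0.20), when 1.93% of all probe sets were called. With the 18S level, Lum was -0.61 ± 0.24, Ogn -0.65 ± 0.30 and Dpt -0.49 ± 0.31 (limma adjusted p = 0.18, 0.25 and 0.42), when 1.91% were called. These Ogn values are of its brighter probe set. At the dimmer one Ogn was -0.99 ± 0.38 with the hybridisation control level (limma adjusted p = 0.17). With the 18S level the dimmer one was 0.0031 ± 0.34 (limma adjusted p = 0.997), so its direction was not kept. Both levels differ between the groups without overlap, so these levels and the supplement cannot be told apart.

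**Figure D2:**
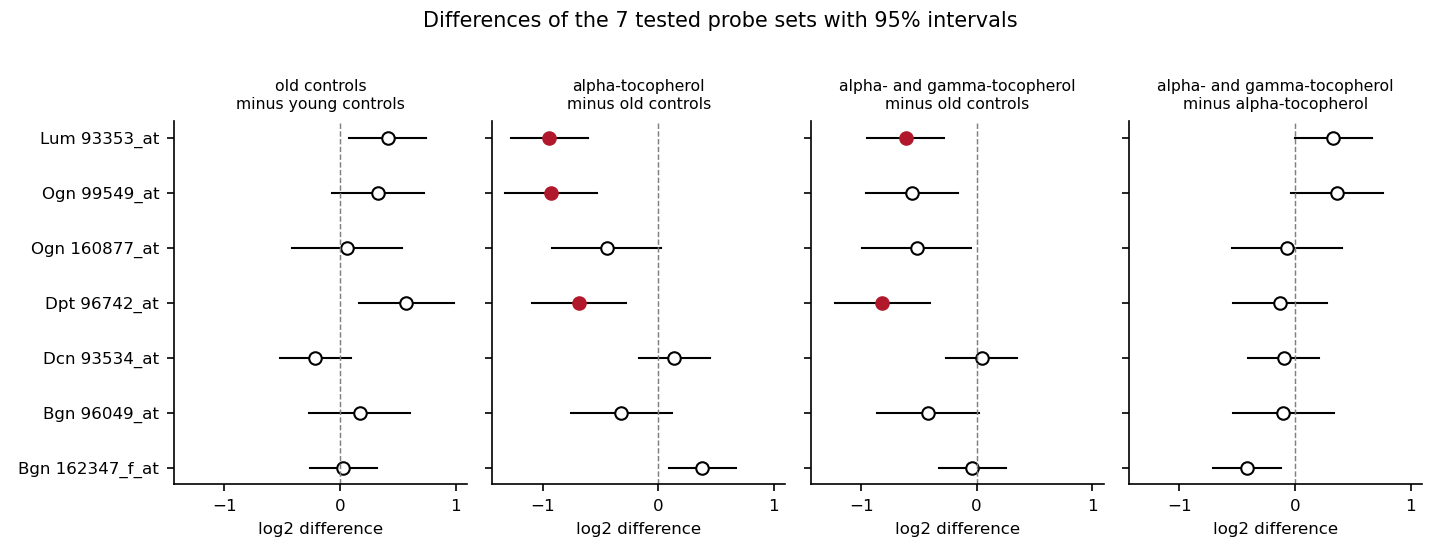
Log2 differences of the 7 tested probe sets in 4 comparisons, with 95% intervals from limma over the 20 arrays; filled red points have an adjusted p below 0.05. The filled points are Lum, the brighter Ogn probe set and Dpt for alpha-tocopherol and Lum and Dpt for both tocopherols, and all 5 lie left of 0.

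In old hearts given alpha- and gamma-tocopherol, 2 of the 5 tested genes were lower than in old controls, Lum and Dpt, where 6.43% of all tested probe sets were called and 3.76% were called lower. The median difference of the 5 genes was -0.56, against -0.02 over all tested genes. The old controls are the same animals as in the alpha-tocopherol comparison, so the 2 sets of differences are not independent.

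Dpt read 901, 1575, 859, 1626 and 1510 in hearts given both tocopherols. All 5 lay below the lowest old control, which read 1838. The log2 difference was -0.82 ± 0.20 (limma adjusted p = 0.017), a level 0.57 times that of old controls. Lum read 3459, 4764, 4087, 5036 and 4816 in these hearts, again all below the lowest old control at 5214. Its difference was -0.61 ± 0.16 (limma adjusted p = 0.025), or 0.65 times. Groups not overlapping in this direction were found for 4.94% of all tested probe sets.

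Ogn at its brighter probe set read 1831, 2316, 1822, 2952 and 2806 with both tocopherols, and 4 of these 5 lay below the lowest old control. The difference was -0.56 ± 0.19 and did not pass the test (limma adjusted p = 0.081). At the dimmer probe set it read 882, 2156, 1428, 2387 and 1296, with a difference of -0.52 ± 0.23 (limma adjusted p = 0.18). Dcn read 51653, 54543, 30489, 45051 and 47510 and differed by 0.04 ± 0.15 (limma adjusted p = 0.90, 95% interval -0.26 to 0.35). Bgn read 13654, 10553, 6378, 9505 and 9699 at its brighter probe set and differed by -0.42 ± 0.21 (limma adjusted p = 0.24). At the dimmer probe set Bgn read 2914, 2315, 2268, 1755 and 2569, a difference of -0.04 ± 0.14 (limma adjusted p = 0.91).

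Both calls were lost without some single animals. Without old control 5, Lum was -0.54 ± 0.17 and Dpt -0.69 ± 0.20 (limma adjusted p = 0.068 and 0.052); without animal 1 of the group fed both tocopherols they were -0.53 ± 0.17 and -0.70 ± 0.20 (limma adjusted p = 0.074 and 0.053); and without old control 4 Lum was -0.56 ± 0.17 (limma adjusted p = 0.063). With the hybridisation control level as a covariate Dpt stayed called at -0.87 ± 0.22 (limma adjusted p = 0.037) and Lum was -0.64 ± 0.18 (limma adjusted p = 0.055), when 3.25% of all probe sets were called. With the 18S level Dpt was called at -0.75 ± 0.21 and Lum was -0.51 ± 0.16 (limma adjusted p = 0.044 and 0.076), when 4.62% were called.

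**Figure D3:**
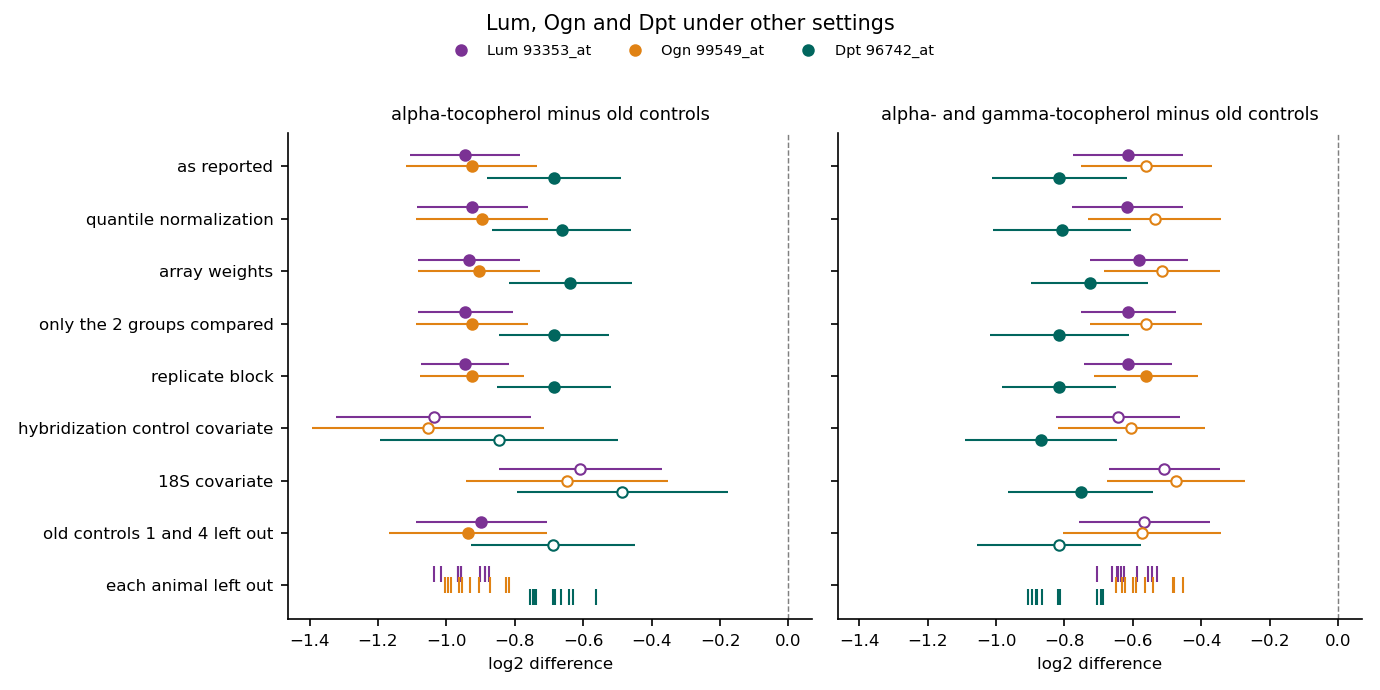
Differences of Lum, Ogn (brighter probe set) and Dpt against old controls under 8 settings, with 1 SE, and with each single animal left out (ticks); filled points have an adjusted p below 0.05 over all tested probe sets. Every value lies left of 0. For alpha-tocopherol all points open up with the 2 covariates, and Dpt also without old controls 1 and 4. For both tocopherols Lum opens up with the 2 covariates, and Lum and Dpt without old controls 1 and 4. Ogn is filled there only with the replicate block.

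The 2 supplements were compared with each other for all 5 tested genes. None was called, at an unadjusted p below 0.05 the count was also 0, and 0.564% of all tested probe sets were called by limma. Lum differed by 0.33 ± 0.16 between both tocopherols and alpha-tocopherol alone (95% interval reaching up to 0.66 and including 0, limma adjusted p = 0.32). Of the 5 hearts given both, 3 lay above the highest alpha-tocopherol heart. Ogn at its brighter probe set differed by 0.36 ± 0.19 (95% interval -0.03 to 0.76), at its dimmer one by -0.07 ± 0.23 (limma adjusted p = 0.92), and Dpt by -0.13 ± 0.20 (95% interval -0.54 to 0.28). At the dimmer Bgn probe set the difference was -0.42 ± 0.14 with an unadjusted limma p of 0.0070 and an adjusted p of 0.15. The hybridisation controls and 18S ribosomal RNA also differed between these 2 groups, by -0.57 and -1.14 (log2), with no overlap of arrays. The exact permutation test gave p = 0.0079 for each, and 0.032 after adjustment. These levels and the supplements cannot be told apart.

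In old controls, none of the 5 tested genes was called against young controls, where 4.94% of all tested probe sets were called. At an unadjusted p below 0.05 the count was 2, Dpt and Lum. By p they ranked 595 and 828 of the 7453 tested probe sets, so many other probe sets also lay below 0.05 unadjusted. Dpt read 2253, 1934, 1838, 2216 and 3162 in old controls, against 1512, 1331, 1065, 1971 and 1695 in young controls. Of the old hearts 3 lay above the highest young heart, and the difference was 0.57 ± 0.20 (limma adjusted p = 0.099, unadjusted 0.0079). Lum read 6359, 6523, 5214, 7913 and 8188 in old controls, against 4382, 4248, 3939, 6443 and 6918 in young controls, a difference of 0.42 ± 0.16 (limma adjusted p = 0.15). Of the old hearts 2 lay above the highest young heart.

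Ogn differed by 0.33 ± 0.19 between old and young controls at its brighter probe set and by 0.06 ± 0.23 at the dimmer one (limma adjusted p = 0.40 and 0.93). In young controls Ogn read 2885, 2011, 2008, 3656 and 3429 at the brighter and 2022, 1995, 1575, 2382 and 2883 at the dimmer probe set. The old and young groups overlapped at both. Dcn read 57457, 55440, 44067, 49944 and 47385 in young controls, and old controls differed by -0.21 ± 0.15 (limma adjusted p = 0.51). Bgn read 13899, 13696, 6021, 12471 and 14164 in young controls at its brighter probe set, where young control 3 stood far below the others. Old controls differed there by 0.17 ± 0.21 (limma adjusted p = 0.75) and, without young control 3 and old control 3, by -0.04 ± 0.18. At the dimmer probe set young controls read 2139, 2644, 1926, 1984 and 3264, and the difference was 0.03 ± 0.14 (limma adjusted p = 0.95).

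Fibromodulin, which shares a class with lumican and competes with it for a collagen binding site, gave a different picture. At its brighter probe set Fmod read 111, 251, 112, 144 and 118 in hearts given both tocopherols and 143, 69.1, 144, 84.4 and 226 with alpha-tocopherol alone. It read 193, 151, 104, 131 and 1005 in old controls, against 900, 568, 697, 620 and 976 in young controls. All 5 young hearts lay above 14 of the 15 old hearts, and old control 5 was brighter than every young heart. The signal of the old groups is near the low end of the array, and the deposited table used here has no detection calls.

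Because both Fmod probe sets fell among the dimmest 40%, their tests come from a fit of all 12422 probe sets, added after seeing the data. In that fit Fmod at its brighter probe set was lower in old than in young controls by 1.51 ± 0.39 (log2 difference -1.51, limma adjusted p = 0.040), where 2.33% of all probe sets were called and 1.09% were called lower. Of the old controls 4 lay below the lowest young control. This call depended on the animals included. Without old control 5 the difference was -1.99 (limma adjusted p = 0.00042), and without any other single animal it was -1.31 to -1.59 with limma adjusted p from 0.054 to 0.11, no longer called. With the 18S or the hybridisation control level as a covariate it was -1.47 or -1.46 (limma adjusted p = 0.052 and 0.058).

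Against young controls Fmod at its brighter probe set was lower with both tocopherols (log2 difference with a 95% interval of -2.81 to -1.18, limma adjusted p = 0.0068) and with alpha-tocopherol alone (-2.11 ± 0.39, limma adjusted p = 0.0015). Levels were 0.25 and 0.23 times those of young controls, where 2.8% and 8.92% of all probe sets were called in that fit. In neither comparison did the groups overlap, as for 2.22% and 3.94% of all probe sets in this direction. With both tocopherols the call was kept in all 19 alternative settings, and with alpha-tocopherol alone in 17 of 19. The 2 in which it was lost were the covariates (hybridisation controls -2.55, limma adjusted p = 0.057; 18S -1.74, limma adjusted p = 0.28). Against old controls Fmod differed by -0.49 ± 0.39 with both tocopherols and by -0.61 ± 0.39 with alpha-tocopherol alone (limma adjusted p = 0.55 and 0.32). Without old control 5 these differences were -0.0071 and -0.12 (limma adjusted p = 0.99 and 0.82).

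The dimmer Fmod probe set did not follow this pattern. It read 81.5, 95.6, 341, 239 and 303 with both tocopherols, 398, 467, 249, 364 and 152 with alpha-tocopherol alone, 255, 82.8, 54.6, 210 and 42.1 in old controls and 82.2, 386, 157, 197 and 506 in young controls. All groups overlapped. Its old against young difference was -0.77 ± 0.42 (limma adjusted p = 0.47), and its alpha-tocopherol against old difference was 1.12 ± 0.42 (limma adjusted p = 0.080), opposite in sign to that of the brighter one with all animals. Over the 20 arrays the 2 Fmod probe sets had a Pearson r of -0.20, and the letter r in the dimmer one's name marks a set picked with some probe selection rules dropped. No direction for Fmod is given beyond the brighter probe set.

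The supplemented groups were also set against young controls. With alpha-tocopherol alone 2 of the 5 tested genes were lower, Lum (-0.53 ± 0.16, limma adjusted p = 0.028) and Ogn at its brighter probe set (-0.60 ± 0.19, limma adjusted p = 0.037), where 15.6% of all tested probe sets were called and 8.87% lower. Of the alpha-tocopherol hearts 4 lay below the lowest young control for Lum and 3 for Ogn. Dpt differed by -0.11 ± 0.20 (limma adjusted p = 0.75), with groups that overlapped throughout. The Lum call was lost without young control 4 or 5 or alpha-tocopherol animal 2 or 4 (-0.42 to -0.48, limma adjusted p = 0.064 to 0.088). Without young control 1, 4 or 5 or alpha-tocopherol animal 2, 3 or 4, Ogn was -0.49 to -0.60 and not called (limma adjusted p = 0.062 to 0.11). With the 18S level as a covariate Lum was -0.16 and Ogn -0.29 (limma adjusted p = 0.83 and 0.72), and with the hybridisation control level they were -0.61 and -0.71 (limma adjusted p = 0.24 and 0.25).

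Bgn at its dimmer probe set was called higher than in young controls with alpha-tocopherol alone (0.41 ± 0.14, limma adjusted p = 0.0498), while the brighter one differed by -0.15 ± 0.21 (limma adjusted p = 0.68). The call at the dimmer probe set was kept in 7 of 25 alternatives, among them 3 of 10 omissions of 1 animal (over these 10 it was 0.34 to 0.53, limma adjusted p = 0.012 to 0.13), and with the 18S level as a covariate the difference was 0.20 ± 0.23 (limma adjusted p = 0.74). With both tocopherols none of the 5 genes was called against young controls by limma, and none at an unadjusted p below 0.05, where 5.55% of all tested probe sets were called. Lum differed by -0.20 ± 0.16, Dpt by -0.24 ± 0.20 and Ogn by -0.23 ± 0.19 at its brighter and -0.46 ± 0.23 at its dimmer probe set (limma adjusted p = 0.54 and 0.27).

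Across the 20 hearts Lum, Ogn and Dpt varied together, with Ogn taken here and below at its brighter probe set unless stated. Lum and Ogn had a Pearson r of 0.93 (Spearman 0.93), and 0.83 after group means were taken out. Of 5662 tested genes each was the other's closest. Ogn and Dpt had an r of 0.85, and 0.90 within groups, and Lum and Dpt an r of 0.82, and 0.80 within groups. Without the 2 hearts farthest from the median, the within-group values were 0.82, 0.91 and 0.82 in the same order. The dimmer Ogn probe set had lower values, an r of 0.62 with Lum and 0.70 with Dpt, and 0.52 and 0.66 within groups. These are descriptions over arrays that share a hybridisation procedure, a scaling and, within a group, a diet.

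**Figure D4:**
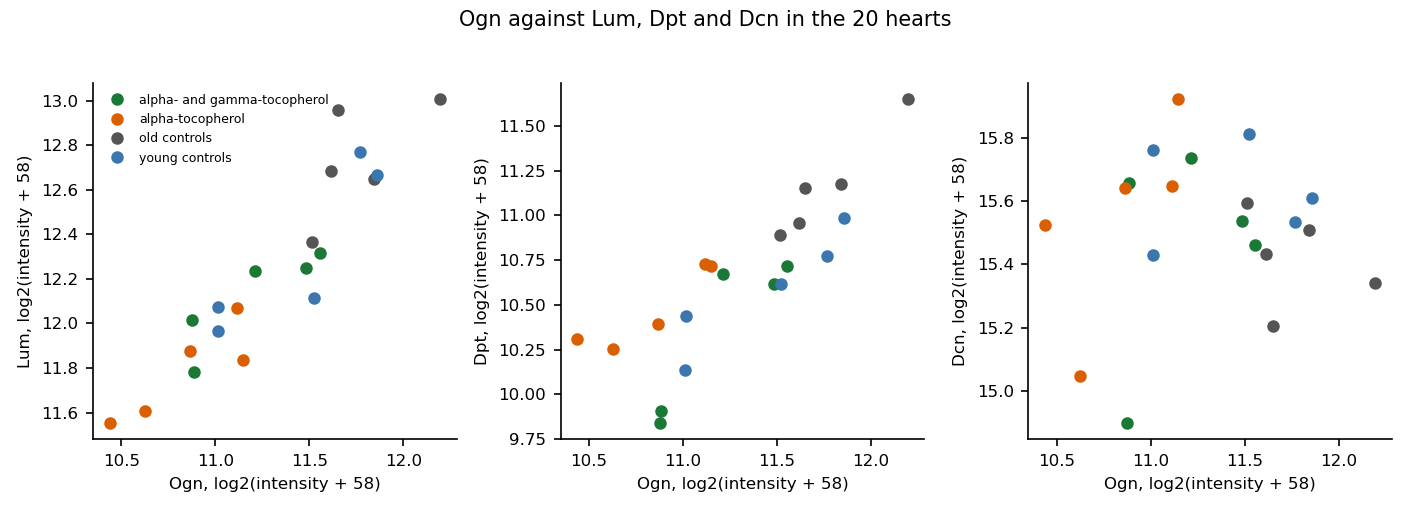
Log2(intensity + 58) of Ogn (brighter probe set, x axis) against Lum, Dpt and Dcn in the 20 hearts, coloured by group. Lum and Dpt climb with Ogn (r of 0.93 and 0.85), and Dcn has an r of 0.07.

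Dcn had lower correlations with them. Its r was -0.13 with Lum, 0.07 with Ogn and 0.12 with Dpt, and -0.0085, 0.27 and 0.37 after group means were taken out. With Bgn at its brighter probe set it was 0.51, and 0.63 within groups. Bgn at that probe set had intermediate values, 0.48 with Lum, 0.53 with Ogn and 0.59 with Dpt. On the mouse genome of the assembly GRCm38.p6 Dcn and Lum are next to each other on chromosome 10, followed by Kera and Epyc, other genes of the family. Ogn is on chromosome 13 beside Omd, Aspn and Ecm2, Fmod is beside Prelp and Optc on chromosome 1, Dpt is elsewhere on chromosome 1 and Bgn is on chromosome X.

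Outside the set, the genes most like each member were taken by Pearson r over the 20 arrays among 5658 other tested genes. For Lum they were Wdr13 (0.89), Pdlim3 (0.86) and Stx7 (0.85). For Ogn they were Sgce, which encodes epsilon-sarcoglycan (0.90), Nptn (0.85) and Seh1l (0.84), and for Dpt Cpq (0.88), Kpna6 (0.84) and Matn2, a matrilin of the extracellular matrix (0.82). For Bgn they were Lama4, a laminin chain of vessel basement membranes (0.80), Matn2 (0.76) and Naa35 (0.74), and for Dcn Rnf10 (0.78), Klf9 (0.75) and Mroh1 (0.74). Of the 6 Lum and Ogn neighbours, 5 were themselves called lower with alpha-tocopherol than in old controls, with log2 differences of -0.93 for Wdr13, -0.65 for Nptn, -0.63 for Seh1l, -0.51 for Sgce and -0.33 for Stx7 (limma adjusted p = 0.00020, 0.0059, 0.0044, 0.030 and 0.027). Pdlim3 differed by -0.38 (limma adjusted p = 0.070). Over all tested probe sets 12.8% were called lower in this comparison. The neighbours were picked by correlation over all 20 arrays, group differences included. A shared difference is thus partly built into the choice, and the count is no separate result.

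The start regions of Ogn and Dpt are shown because these genes moved together from different chromosomes, and that of Fmod because its pattern differed. Each runs from 250 bases before to 50 bases after the start of the gene, as RefSeq gives it on GRCm38.p6, and such windows were at hand for 5 of the 7 members. The windows are chr13:49607765-49608064 for Ogn, chr1:164796413-164796712 for Dpt and chr1:134037004-134037303 for Fmod, all on the plus strand. Capitals mark matches to the motifs searched on both strands, which were the TATA box as TATAAA, the CCAAT box by those letters, the GC box as GGGCGG, and the AP-1 motif as TGANTCA.
Ogn: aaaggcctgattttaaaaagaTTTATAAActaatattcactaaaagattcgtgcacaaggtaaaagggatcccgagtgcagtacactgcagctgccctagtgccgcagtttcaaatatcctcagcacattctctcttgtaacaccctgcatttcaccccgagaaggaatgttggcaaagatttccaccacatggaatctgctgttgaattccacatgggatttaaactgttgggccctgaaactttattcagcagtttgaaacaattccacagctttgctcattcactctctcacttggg
Dpt: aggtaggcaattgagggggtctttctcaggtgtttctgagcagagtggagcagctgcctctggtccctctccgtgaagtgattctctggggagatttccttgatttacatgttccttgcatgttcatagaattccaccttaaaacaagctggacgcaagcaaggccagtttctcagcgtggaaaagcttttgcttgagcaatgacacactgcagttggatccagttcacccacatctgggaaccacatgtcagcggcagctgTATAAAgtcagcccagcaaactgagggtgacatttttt
Fmod: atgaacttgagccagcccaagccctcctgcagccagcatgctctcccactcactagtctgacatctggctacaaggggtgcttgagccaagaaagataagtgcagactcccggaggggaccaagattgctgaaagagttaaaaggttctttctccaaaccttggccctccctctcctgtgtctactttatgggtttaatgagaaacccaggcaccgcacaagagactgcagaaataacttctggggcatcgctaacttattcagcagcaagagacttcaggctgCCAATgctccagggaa
The Ogn capitals are 2 overlapping TATAAA matches on opposite strands, 229 and 227 bases before the start, and the Dpt match to TATAAA begins 12 bases after it. Fmod has CCAAT 34 bases after the start. Over the 5 member windows TATAAA was found in 2, as in 13.6% of 32841 windows, CCAAT in 2 (37.4% of all), GGGCGG in 1, that of Bgn (35.7% of all), and TGANTCA in 0 (7.81% of all). Ogn and Dpt therefore both hold TATAAA letters, at different distances and on opposite sides of the start. A match describes letters in the window only.

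Other genes of the collagen matrix did not share 1 direction. Of 26 tested genes for collagens and fibril assembly, 5 were lower and 2 higher with alpha-tocopherol than in old controls. Over all tested probe sets 12.8% were called lower and 8.94% higher, so these counts are near the share of the array. Postn, the matrix protein periostin, differed by -1.49 ± 0.27, the type III collagen chain Col3a1 by -1.39 ± 0.26 and Loxl1, a lysyl oxidase relative that crosslinks elastin, by 1.34 ± 0.15 (limma adjusted p = 0.00062, 0.00075 and 4.2e-06). The type I collagen chain Col1a2 was called higher at 1 probe set (0.71 ± 0.11), while its other probe set read -0.21 ± 0.22. The median of the 26 was -0.07, against -0.04 over all tested genes. The list differences here and below come from the fit without covariates. For alpha-tocopherol against old controls, 1.93% of all probe sets were called with the hybridisation control level as a covariate and 1.91% with 18S. These levels and the supplement cannot be told apart for the list genes either.

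With both tocopherols 4 of the 26 were lower than in old controls and 2 higher, where 3.76% and 2.67% of all tested probe sets were. Col3a1 differed by -1.54 ± 0.26, the type V collagen chain Col5a2 by -1.02 ± 0.23 and Loxl1 by 0.90 ± 0.15 (limma adjusted p = 0.0015, 0.010 and 0.0011). The median was -0.28, against -0.02 over all tested genes. In old against young controls limma called 0 of the 26, and 5 had an unadjusted p below 0.05.

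**Figure D5:**
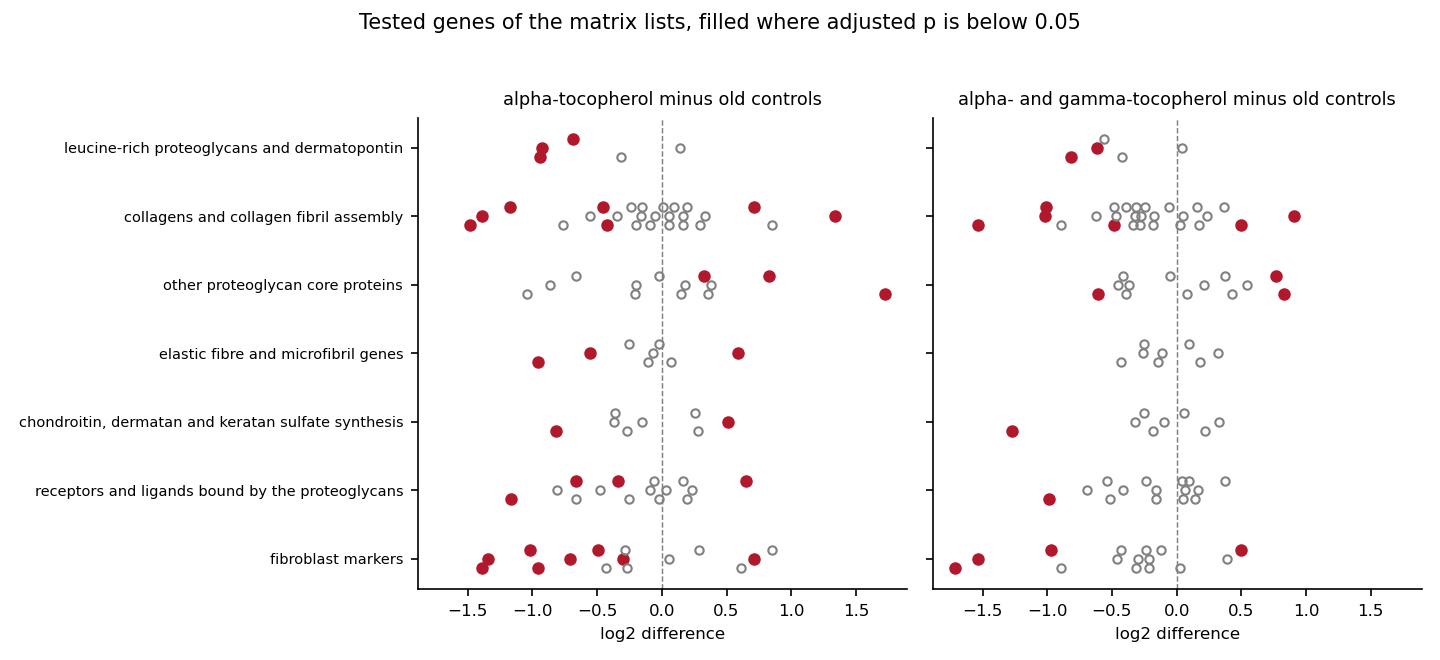
Log2 differences of the tested genes of 6 matrix and fibroblast lists and of the 5 tested members (top row) against old controls, 1 point per gene at its brightest probe set; filled red points have an adjusted p below 0.05. Filled points of the member row all lie left of 0, and the collagen row has filled points on both sides (5 left and 2 right for alpha-tocopherol).

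Of the other proteoglycan core proteins most were not called, and 5 of the 6 calls of the supplements against old controls were higher. Sdc4 counts in both comparisons, which share the old controls, so these calls are not independent. Over all tested probe sets 21.7% were called with alpha-tocopherol and 6.43% with both tocopherols. Of 13 tested, 3 were higher and 0 lower with alpha-tocopherol than in old controls, the cell surface proteoglycans Sdc4 (1.72 ± 0.24), Sdc1 (0.83 ± 0.24) and Gpc1 (0.32 ± 0.11), with limma adjusted p of 4.1e-05, 0.016 and 0.040. With both tocopherols Spock2 (0.77 ± 0.19) and Sdc4 (0.83 ± 0.24) were higher and the basement membrane proteoglycan perlecan, Hspg2, was lower (-0.61 ± 0.18), with limma adjusted p of 0.020, 0.039 and 0.043. In old controls Spock2 and Gpc3 were lower than in young controls (-0.88 and -0.66). Of 12 other listed small leucine-rich proteoglycans 4 were on the array and 1 passed the filter, chondroadherin (Chad), which was not called in these 3 comparisons.

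Most enzymes that make the sulfated chains were not called. The shares called over all tested probe sets, 21.7% with alpha-tocopherol and 6.43% with both tocopherols, also stand beside the lists below. Of 8 tested, Ugdh, which makes the glucuronic acid donor, was lower (-0.82 ± 0.17) and the galactosyltransferase B4galt1 higher (0.51 ± 0.12) with alpha-tocopherol than in old controls, and the chondroitin polymerising factor Chpf was lower with both tocopherols (-1.27 ± 0.34). Among 15 tested receptors and ligands that these proteoglycans bind, 3 were lower and 1 higher with alpha-tocopherol. They included the complement chains C1qb (-1.16 ± 0.22) and C1qa (-0.66 ± 0.20) and the TGF-beta co-receptor Tgfbr3 (0.65 ± 0.14). With both tocopherols C1qb alone was called (-0.99 ± 0.22). Of 8 elastic fibre genes, Mfap5 (-0.96 ± 0.17) and Fbln2 (-0.55 ± 0.14) were lower and Ltbp3 (0.59 ± 0.20) higher with alpha-tocopherol, and with both tocopherols limma called 0 of the 8, with 1 at an unadjusted p below 0.05.

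Some fibroblast markers differed in the same comparisons as Lum, Ogn and Dpt, as did some markers of other cells, given below. Of 15 tested markers 7 were lower and 1 higher with alpha-tocopherol than in old controls, with a median of -0.30, among them Cd34 (-1.02 ± 0.16), Igfbp6 (-1.34 ± 0.30) and the receptor Pdgfra (-0.71 ± 0.23). The other 7 were not called, where 12.8% of all tested probe sets were called lower. With both tocopherols 3 were lower, 1 was higher and 11 were not called, again with a median of -0.30, where 3.76% were called lower. The marker called higher was Col1a2 in both comparisons. Their summed intensity ranged from 57648 to 71876 with both tocopherols, from 60402 to 74774 with alpha-tocopherol alone, from 73713 to 85339 in old controls and from 72823 to 89573 in young controls. The sums with both tocopherols lay below all old controls, and those with alpha-tocopherol overlapped them. Col3a1, Col1a2 and Mfap5 also stand in the matrix lists.

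Some markers of other cells were called too, where 21.7% of all tested probe sets were called with alpha-tocopherol and 6.43% with both tocopherols. Of 13 heart muscle markers 5 were higher with alpha-tocopherol, and their sums were 911216 to 1111700, against 777908 to 881628 in old controls. With both tocopherols limma called 0 of the 13, with 3 at an unadjusted p below 0.05. Of 12 endothelial markers 3 were lower with each supplement. Of 13 macrophage markers 1 was lower with both tocopherols, and 6 were lower and 1 higher with alpha-tocopherol alone. Of 10 smooth muscle markers 1 was lower with both tocopherols, and 3 were lower and 1 higher with alpha-tocopherol alone. Median differences from old controls with alpha-tocopherol were -0.54 for smooth muscle, -0.31 for macrophage, -0.25 for endothelial and 0.26 for heart muscle markers. With both tocopherols they were -0.38, -0.16, -0.12 and -0.08 in the same order. A lower median was thus not particular to fibroblast markers. Liver secretory transcripts were lower in 5 of 7 with alpha-tocopherol and in 3 of 7 with both, with sums of 2258 to 3700 with both tocopherols, 1860 to 3510 with alpha-tocopherol alone and 5220 to 21351 in old controls. Of 125 marker genes on the array none read 0 on any array. The part of these cell types in the differences of the members was not tested.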

How the data were processed

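Per the labels' protocols, polyadenylated RNA was purified from frozen heart tissue of 20 mice and made into biotin-labelled cRNA, with a separate array for each animal. The deposited file gives 1 linear intensity per probe set and array, for 12488 probe sets. How these intensities were computed is not stated in the labels. The deposited intensities have the same trimmed mean on every array (1501 with 2% left out at each end), run up to 275793, and have array medians within 0.12 of each other (log2), so their scaling was kept. The number of arrays limits the precision, with a median standard error of 0.18 (log2).

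Symbols come from the platform annotation where it gives a single one (10833 of 12422, controls aside). By gene identifier 10817 matched RefSeq GRCm38.p6, with 0 symbols changed. Deposited intensities were turned into log2(intensity + 58), 58 being about their 10th percentile, so differences of dim probe sets are understated. Left out were 66 control probe sets and then the dimmest 40%, which leaves 7453 probe sets of 5663 named genes. Limma 3.58.1 (R 4.3.3) fitted the group means over all 20 arrays with lmFit and with eBayes, trend and robust both on. P-values are two-sided and Benjamini-Hochberg adjusted over these 7453, and a call needs an adjusted p below 0.05. Counts at an unadjusted p below 0.05 are given without the share over all tested probe sets, so they are descriptions only. A gene in a count stands for its probe set with the highest mean. The steps were tested on simulated data.

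The members, the lists and the settings were chosen with earlier results of these data known. All member probe sets are named, with the 3 genes most like each member by Pearson r and up to 3 called genes of each pathway list per comparison, those with the smallest p. The markers Cd34, Igfbp6, Pdgfra and Myh6 are examples chosen after their values were seen. Alternatives were pseudocounts of 16 and 200, other filters, quantile or median scaling, eBayes with trend and robust both off, weighted arrays, a fit of 2 groups only, a replicate block, 2 covariates, the second probe set of a gene and the omission of animals. For Fmod a fit without the filter was added after seeing the data. Motifs were searched as exact letters.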

Additional observations from a re-analysis of the deposited data

Results flagged for a closer look

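Of 36 groups of 5 values tested, 9 probe sets in 4 groups, 2 held an animal far from the other 4 by Dixon's criterion, which chance alone meets in about 1 group in 20. Young control 3 read 6020.5 for Bgn at its brighter probe set, where the next lowest young control read 12471. Old control 5 read 1005 for Fmod at its brighter probe set, where the next highest old control read 193.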

How the results depend on the processing

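Counts of called members stayed at 0 for old against young controls, for the 2 supplements against each other and for both tocopherols against young controls, in all 25 alternatives of each. For alpha-tocopherol against old controls the count of 3 was kept in 12 of 15 settings and 9 of 10 omissions of 1 animal (2 to 3). It was 0 with either covariate, where 4 members (hybridisation controls) and 2 members (18S) had an unadjusted limma p below 0.05. The share of all tested probe sets below that unadjusted p is not given here. For both tocopherols against old controls the count of 2 was 1 with either covariate and 0 without old controls 1 and 4, where 3 had an unadjusted p below 0.05, and it ranged from 0 to 2 with 1 animal left out. Without old controls 1 and 4, Lum was -0.57 ± 0.19 and Dpt -0.82 ± 0.24 (limma adjusted p = 0.12 and 0.077), and the Dpt difference with alpha-tocopherol was -0.69 ± 0.24 (limma adjusted p = 0.063). For alpha-tocopherol against young controls the count of 2 was 1 with no filter, with neither the trend nor the robust setting of eBayes and without old controls 1 and 4, and 0 with only the 2 groups or with either covariate, and it ranged from 0 to 2 with 1 animal left out. Bgn with alpha-tocopherol against young controls was -0.15 at its brighter probe set and 0.41 at the other. The difference at the dimmer Bgn probe set between alpha-tocopherol and old controls became called in 5 of 25 alternatives. Old control 3, which stood apart in the Gapdh 3' minus 5' signal, was the lowest old control for Lum, Dpt and the brighter Ogn probe set. Without it the same members were called against old controls with each supplement.

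With the sample number as a replicate block, Ogn at its brighter probe set was -0.56 ± 0.15 with both tocopherols against old controls (limma adjusted p = 0.038). This makes 3 called members there, and the block changed no other call of a tested member's brightest probe set. The share of all tested probe sets called with the block is not given here, so this count cannot be set against it. The labels name no litter, batch or day shared by animals of the same number. Over all tested probe sets the deviations of same-numbered arrays correlated at -0.084 to 0.10 over 30 pairs. Of the 20 arrays, 2 correlated best with their own number. Low correlations over all probe sets cannot tell whether the number matters for these members. For both tocopherols against old controls the SE of Lum, Ogn and Dpt was 0.13, 0.15 and 0.17 with the block, against 0.16, 0.19 and 0.20 without it. The causes of these changes were not tested.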
